A study of Polyandrocarpa zorritensis and Clavelina lepadiformis with 36 samples.

Results

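Polyandrocarpa zorritensis is a colonial tunicate that survives poor conditions as spherules, small dormant bodies formed on its stolons, from which new zooids grow once the water is warm again. Germinating spherules were compared here with zooids, the filter-feeding adult bodies, in RNA sequencing data. The series holds 36 samples of 2 tunicates, and 9 of them belong to this comparison: 6 samples of germinating spherules and 3 of zooids. Spherules had germinated for 48 h, at 18 °C in 3 samples and at 24 °C in the other 3, and zooids were raised from germinated material of a rope taken from a harbour and kept at 24 °C. Each sample pooled tissue of 3 or more specimens, and no group carried a mutation or a drug according to the sources used here. The deposited table gives 1 mean per stage, taken over both temperatures in germinating spherules. The spread between samples is therefore unknown, no difference below was tested, and germination at 18 °C cannot be told apart from germination at 24 °C.

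Of 27938 assembled transcripts, 17361 had a mean level of at least 5 in the higher of the 2 stages and were compared. Levels are TPM, the share of all transcripts that 1 transcript takes, corrected for its length, scaled between libraries by TMM (trimmed mean of M values). A change is log2 of the germinating mean plus 1 over the zooid mean plus 1, which understates the change of weakly expressed transcripts. The highest mean was 5 in the last transcript kept and 4.999 in the first left out, and 1781 transcripts lay between 5 and 6 against 2102 between 4 and 5. Human UniProt entry names were at hand for 2790 of the compared transcripts, with 2648 different names. They came only from transcripts with a partner in the second species, Clavelina lepadiformis, and with a call in some stage by the authors in both species, so the named transcripts are no random sample. A name stands for the closest human protein and not for a proven ortholog.

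A zooid feeds by drawing water through a ciliated branchial basket, traps food in mucus from the endostyle, digests it in a looped gut, and contracts with body-wall muscle. A spherule has none of these organs: inside a tunic it holds a vascular epidermis rich in lipid and glycogen, and undifferentiated mesenchymal cells. During germination the epidermis folds inwards and organs are built anew, a process that in animals generally draws on ribosome production, protein folding, cell division and the transcription factors that pattern organs.

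Germinating spherules had 2200 transcripts (12.7%) at 2-fold or more above zooids, and zooids had 3866 (22.3%) at 2-fold or more above germinating spherules. Zooids kept the larger number at higher thresholds. Germinating spherules had 780 and zooids 2230 transcripts at 4-fold, 333 and 911 at 8-fold, and 61 and 103 at 32-fold. The median change over all compared transcripts was -0.06. The smallest changes counted were 1.00015 and -1.00086, and the nearest ones not counted were 0.99952 and -0.99985. Among transcripts with a human name, 249 (8.92%) were higher in germinating spherules and 550 (19.7%) in zooids. In whole-body RNA of this kind, fewer cells of a type and less RNA per cell cannot be told apart.

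Totals of the stages differed. All levels summed to 1039981 in germinating spherules and to 687867 in zooids. The 100 most abundant transcripts took 48.8% of the germinating total and 32.6% of the zooid total. Rescaling both stages to equal totals shifts the ratio of the means by -0.60 on the log2 scale, before the 1 added to each mean is counted. On the same 17361 transcripts this gave 1198 higher in germinating spherules and 6074 higher in zooids, with a median change of -0.62. With the minimum of 5 applied after rescaling, 19903 transcripts were compared and the counts were 1179 and 7548, and values given below for equal totals of a list median rest on that minimum. Changes of a gene list are therefore best read against the median of all transcripts, and lists whose sign depends on this scaling are named as such.

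**Figure D1:**
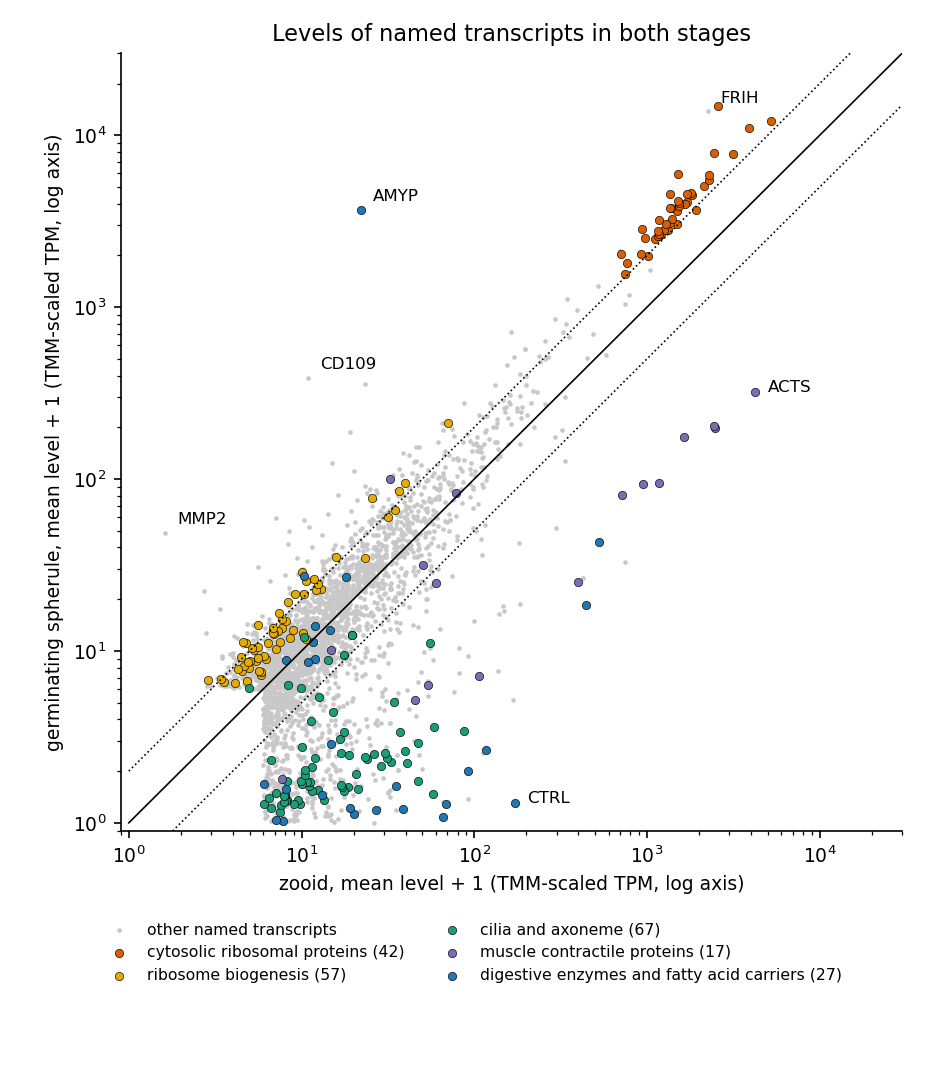
Mean level plus 1 in zooids (horizontal) and germinating spherules (vertical) of the 2790 compared transcripts with a human name, in TMM-scaled TPM on log axes, 1 point per transcript, with the solid line at equal levels and dotted lines at 2-fold. Ribosomal proteins lie along or above the upper dotted line, and most muscle and cilia and many digestive transcripts lie far below the lower one. AMYP, at 21.1 in zooids and 3696 in germinating spherules, stands alone at the upper left.

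Most listed components of motile cilia were lower in germinating spherules. Of 87 transcripts named for cilia or the axoneme, the microtubule core of a cilium, 67 reached the minimum level, and 59 of these were at least 2-fold higher in zooids while none was higher in germinating spherules. Their median change was -2.64, beside -0.06 for all compared transcripts, and their summed level was 143 in germinating spherules and 1232 in zooids. TEKT3, a tektin that lines the doublet microtubules of cilia, had a level of 57.1 in zooids and 0.465 in germinating spherules, a change of -5.31. TEKT4, a second tektin, had 46.4 in zooids and 0.753 in germinating spherules. RSH4A, a radial spoke head protein whose loss causes primary ciliary dyskinesia in humans, had 39.8 in zooids and 1.23 in germinating spherules. Each of these transcripts was thus present in germinating spherules at a few percent of its zooid level or less.

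Parts of the ciliary machinery differed in the size of their change. The 4 tektins had a median change of -4.39. The 12 compared transcripts of dynein arms and their docking, the motors that bend the axoneme, had -2.77, and all 12 were higher in zooids. The 14 transcripts of radial spokes, nexin links and the central pair, which hold the axoneme in register, had -2.65, and again all 14 were higher in zooids. By contrast, the 5 compared transcripts of intraflagellar transport, the conveyor that builds motile and immotile cilia alike, had a median of -0.72, and 1 of them, IFT43, was past 2-fold. The 8 compared transcripts of the list within 2-fold were IFT46, IFT52, IFT56, IFT57, BBS2, BBS5, DAAF3 and CF298, most of them parts of transport and sorting. BBS2 of the BBSome, a coat that sorts ciliary membrane proteins, had 3.99 in zooids and 5.07 in germinating spherules, and DAAF3, a cytoplasmic factor that assembles dyneins, had 9.39 and 11.1. These subgroups were drawn up after their values had been seen. The cilia list was not complete, and transcripts outside it were not counted. Among these, SPAG1, TTC12 and ZMY12, also linked to motile cilia, were within 2-fold, with changes of -0.37, -0.23 and -0.67.

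Digestive enzymes gave the largest changes among named transcripts in both directions. Of 31 transcripts named for digestive enzymes and fatty acid carriers, 27 were compared: 18 were higher in zooids and 2 in germinating spherules, with a median change of -2.93. CTRL, a chymotrypsin-like protease, had a level of 170.0 in zooids and 0.299 in germinating spherules, and its change of -7.04 was the most negative of all named transcripts. The carboxypeptidase CBPA2 had 3 transcripts. Of these, 1 had 64.6 in zooids and 0.077 in germinating spherules, another had 117 and 1.64, and the last had 11.0 and 8.00, within 2-fold. MGA, the intestinal maltase-glucoamylase, had 68.03 in zooids and 0.279 in germinating spherules. CHIT1, a chitinase, had 90.6 in zooids and 1.01 in germinating spherules. FABP6 and FABP4, small carriers of fatty acids and bile acids, had 526 and 443 in zooids, and 41.8 and 17.4 in germinating spherules. The transcripts higher in zooids thus included proteases, a disaccharidase, a chitinase and lipid carriers, while others of the list, such as the chymotrypsinogen CTRB1 at 7.15 in zooids and 7.89 in germinating spherules, were within 2-fold.

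A large change the other way was that of AMYP, pancreatic alpha-amylase, which cleaves starch and glycogen. Its level was 21.1 in zooids and 3696 in germinating spherules, and its change of 7.39 was the most positive of all named transcripts. AMYP was higher still in dormant spherules, at 8982, and in budding nests (the swellings of the stolon that precede zooids, called buds here), at 6387, and had 1001 in stolons. Zooids thus stood apart from the other 4 stages for this transcript. The other digestive transcript higher in germinating spherules was 1 of 2 named for the elastase CEL2A, with 26.2 in germinating spherules and 9.32 in zooids. The second CEL2A transcript had 1.86 in germinating spherules and 13.8 in zooids, so the pair went in opposite directions.

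Contractile proteins of muscle were lower in germinating spherules. Of 17 compared transcripts, 13 were higher in zooids and 1 in germinating spherules, with a median change of -3.14. ACTS, the actin of skeletal muscle, had a level of 4224 in zooids and 319 in germinating spherules. TNNC2, the calcium sensor of the thin filament, had 1640 in zooids and 174 in germinating spherules in the more abundant of its 2 transcripts. MYH1, a muscle myosin heavy chain, had 397 in zooids and 24.3 in germinating spherules, and TITIN, the giant spring of the sarcomere, had 105.1 and 6.18. Levels of muscle transcripts in germinating spherules ran from 0.791, in the troponin TNNT2, to 319, in ACTS. ACTS had 145 in dormant spherules, but 1.21 in buds and 0.376 in stolons. The 1 member that was higher in germinating spherules was PDLI7, a cytoskeletal adaptor found beyond muscle, at 98.8 against 31.5. MYH10, the heavy chain of non-muscle myosin, had 82.3 and 77.4.

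Creatine kinases, which buffer ATP in tissues of high and uneven energy use such as muscle, sperm and ciliated cells, followed the same direction. KCRU, the ubiquitous mitochondrial form, had a level of 65.3 in zooids and 0.325 in germinating spherules. KCRB, the brain form, had 166 in zooids and 4.15 in germinating spherules, and KCRM, the muscle form, had 34.1 and 0.192. Their changes were -5.65, -5.02 and -4.88, and all stood among the 15 most negative named transcripts.

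Few neural transcripts were named. Of 16, only 9 reached the minimum level. Of these, 3 (33.3%) were higher in zooids, beside 22.3% of all transcripts, and none in germinating spherules. SYT1, the calcium sensor of synaptic vesicle release, had 23.9 in zooids and 1.86 in germinating spherules. NLGNX, a neuroligin of the synaptic membrane, had 6.18 in zooids and 0.181 in germinating spherules.

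Cell junction proteins were split. Of 12 compared connexins and claudins, the proteins of gap junctions and tight junctions, 7 (58.3%) were higher in zooids and 2 (16.7%) in germinating spherules. Over all transcripts the shares were 22.3% and 12.7%. The more abundant transcript of CLD1 had a level of 297 in zooids, 50.7 in germinating spherules, 11.5 in dormant spherules, 0.554 in buds and 0.367 in stolons. CLD7 ran in the same order, with 98.8 in zooids, 14.0 in germinating spherules, 5.47 in dormant spherules and at most 0.001 in buds and stolons. The opposite was seen in CLD18, at 130.1 in zooids, 349 in germinating spherules, 459 in stolons, 299 in buds and 222 in dormant spherules. CLD19 had 1 transcript on each side, at 72.9 in zooids against 26.4 and at 7.19 against 18.2.

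Extracellular matrix transcripts differed widely in their change. Of 50 compared transcripts for matrix and adhesion, 21 (42%) were higher in zooids and 3 (6%) in germinating spherules, with a median change of -0.79. Over all transcripts the shares were 22.3% and 12.7%. CO5A2 and CO5A1, chains of a fibrillar collagen, had levels of 745 and 428 in zooids, and 31.7 and 25.5 in germinating spherules. FBN2, a fibrillin of elastic microfibrils, had 181 in zooids and 41.6 in germinating spherules. TSP1, a thrombospondin, had 53.1 and 5.72. Among proteins of basement membranes, LAMA5, PGBM and both AGRIN transcripts were within 2-fold, while LAMB1 had 30.8 and 14.1, and NID1 had 28.9 and 12.1. Both transcripts of PPIB, a proline isomerase of the endoplasmic reticulum that helps collagen to fold, were lower too, at 23.6 and 27.8 in zooids against 2.11 and 2.82 in germinating spherules. Integrins, the cell surface receptors for matrix, were within 2-fold in every compared transcript.

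The 3 transcripts that went the other way were those of MMP2 and LAMB2 and 1 of SVEP1. SVEP1, a large adhesion protein, had 461 in germinating spherules and 154.7 in zooids in this transcript, while another had 0.605 and 10.7 and a weaker change was seen in 1 more, at 11.5 and 9.87. MMP2, a matrix metalloprotease that cleaves collagen, had a level of 47.7 in germinating spherules and 0.611 in zooids, and its change of 4.92 was the third most positive among named transcripts. It had at most 2.98 in the other stages, found in stolons, and 0.119 in buds and 0.108 in dormant spherules. LAMB2, a laminin beta chain, had 61.9 in germinating spherules and 13.2 in zooids, beside 105.6 in buds. MMP14, a membrane protease that activates MMP2 in mammals, was nearly level, at 16.9 in germinating spherules and 17.8 in zooids.

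**Figure D2:**
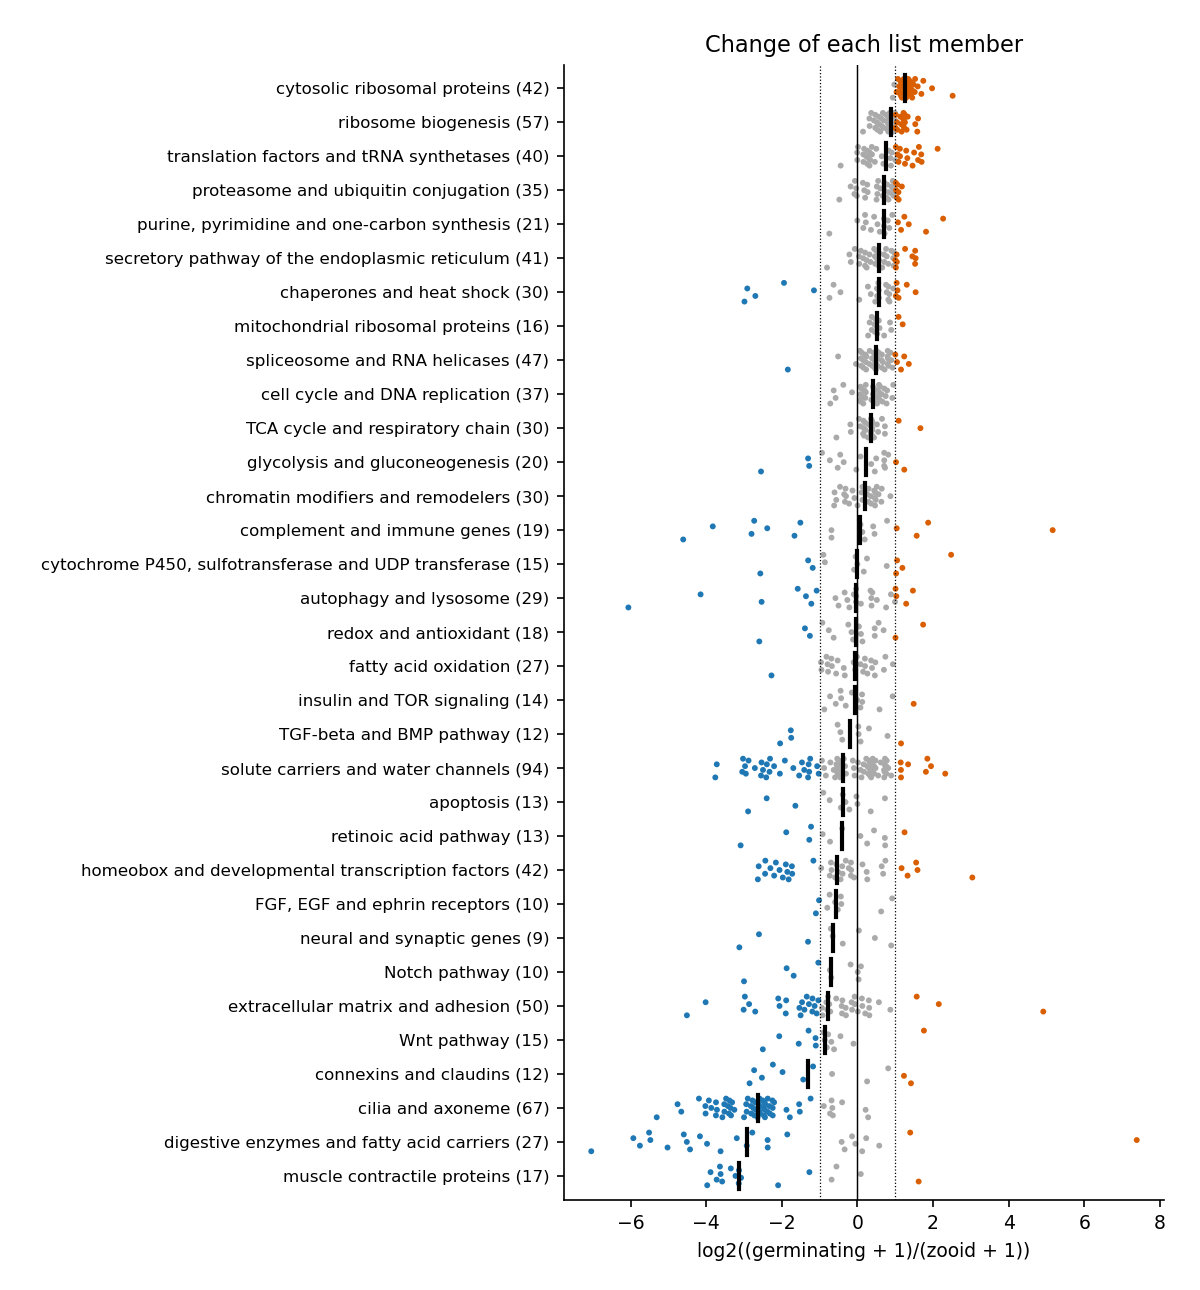
Change of every compared member of the gene lists with at least 9 compared members, 1 point per transcript, with orange at 2-fold or more above zooids, blue at 2-fold or more below and grey between. Black bars are list medians, which ran from 1.26 for cytosolic ribosomal proteins to -3.14 for muscle, and the medians of the secretory, chaperone, mitochondrial ribosomal, spliceosome, cell cycle, TCA, glycolysis, chromatin and immune lists fall below 0 when both stages are scaled to equal totals.

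Cytosolic ribosomal proteins were higher in germinating spherules without exception in direction. All 42 named transcripts were compared, 40 of them were past 2-fold, and the other two, RL21 and RL4, had changes of 0.94 and 0.98. Their median change was 1.26, or 0.67 with both stages scaled to equal totals, and their summed level was 180976 in germinating spherules against 68587 in zooids. Changes were alike within the group, mostly between 1 and 1.7. RS15, a protein of the small subunit, stood apart with 14740 in germinating spherules and 2571 in zooids, a change of 2.52. RLA0, the stalk protein that recruits translation factors, followed with 5979 and 1520. In dormant spherules 40 of the 42 transcripts were at their highest, RS15 among them at 31268, with germinating spherules between dormant spherules and zooids. With equal totals of the 5 stages, dormant spherules were highest in 7 of the 42 and buds in 21. Ribosomal proteins of mitochondria shared the direction at a smaller size. All 16 compared transcripts had a change above 0, with a median of 0.52 that became -0.01 with equal totals. Past 2-fold were 2 (12.5%), near the 12.7% of all transcripts.

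Factors that build ribosomes were higher as well. All 57 compared transcripts for ribosome biogenesis had a change above 0 and 19 were past 2-fold, with a median of 0.90, or 0.35 with equal totals. NUCL, nucleolin, which binds nascent ribosomal RNA, had a level of 210 in germinating spherules and 69.3 in zooids. BRX1, an assembly factor of the large subunit, had 77.0 in germinating spherules and 24.7 in zooids. GAR1 and DKC1, partners in the particle that makes pseudouridine in ribosomal RNA, had 93.9 and 59.3 in germinating spherules, and 38.8 and 30.6 in zooids. BOP1 and WDR12, which act together in the maturation of the large subunit in mammals, had 18.4 and 10.2 in germinating spherules against 7.35 and 3.55 in zooids. NUCL had at most 147 in any other stage, that of buds.

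For the biogenesis factors, germinating spherules were the stage with the highest mean in 42 of 57 transcripts, in contrast to the ribosomal proteins themselves, where they were so in none of 42. Over all compared transcripts germinating spherules were highest in 17.1%. With the 5 stages scaled to equal totals these counts became 25 of 57 and 13 of 42, so the contrast between both groups was smaller on that scale.

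Translation factors were divided by function. Of 40 compared transcripts for translation factors and tRNA synthetases, 15 were higher in germinating spherules and none in zooids, with a median of 0.76, or 0.12 with equal totals. The 3 compared subunits of elongation factor 1, EF1B, EF1D and EF1G, were past 2-fold, with EF1D at 711 in germinating spherules and 162.7 in zooids. So were 9 of 10 compared subunits of the initiation factor eIF3, with EIF3L at 113 and 35.8. IF2B, a subunit of the factor that brings the initiator tRNA, had 209 and 63.9. In contrast, none of 14 compared tRNA synthetases, which charge tRNAs with amino acids, was past 2-fold, and their median change was 0.28. These subgroups too were drawn up after their values had been seen.

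Of 21 compared transcripts for purine, pyrimidine and one-carbon synthesis, 6 (28.6%) were higher in germinating spherules and none in zooids. Over all transcripts the shares were 12.7% and 22.3%. The list median was 0.70, or 0.19 with equal totals. PUR6, a bifunctional enzyme of the middle of the purine pathway, had a level of 51.9 in germinating spherules and 9.99 in zooids. PUR9, which closes the purine ring, had 39.5 and 10.5, and PRPS1, which makes the ribose phosphate donor, had 38.2 and 14.3. PUR8, PURA2, IMDH2 and GUAA, further enzymes of purine synthesis, were within 2-fold. UMPS, the last step to uridine monophosphate, had 44.5 and 18.2. HPRT, which recovers purine bases instead of making them, had 22.0 and 13.2, within 2-fold.

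Among 35 compared transcripts of the proteasome and ubiquitin conjugation, 7 (20%) were higher in germinating spherules and none in zooids. Over all transcripts the shares were 12.7% and 22.3%. The list median was 0.72, or 0.04 with equal totals. All 17 compared proteasome subunits had a change above 0, with PSB2, a subunit of the catalytic core, at 104 in germinating spherules and 45.6 in zooids. Among 41 compared transcripts of the secretory pathway, 9 (22.0%) were higher in germinating spherules and none in zooids. The median of this list, 0.57, became -0.02 with equal totals. DAD1 and RPN1, subunits of the enzyme that attaches sugars to new proteins, had 847 and 126 in germinating spherules, and 294 and 45.3 in zooids. Among 30 compared chaperones, 6 (20%) were higher in germinating spherules and 5 (16.7%) in zooids, beside 12.7% and 22.3% of all transcripts. HS90B, a cytosolic Hsp90, had 637 in germinating spherules and 257 in zooids. The small heat shock protein HSPB1 had 56.5 in zooids and 7.85 in germinating spherules. Median change of the chaperones was 0.56, and -0.02 with equal totals.

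Cell division genes differed little between the stages. None of 37 compared transcripts for the cell cycle and DNA replication was past 2-fold in either direction, and 32 had a change above 0, with a median of 0.41 that turned to -0.32 with equal totals. PCNA, the sliding clamp of DNA polymerase, had a level of 86.5 in germinating spherules and 59.8 in zooids. CCNB2, a mitotic cyclin, had 16.6 and 11.3, and AURKA, a kinase of the spindle poles, had 15.9 and 9.08. The G1 cyclins CCND2 and CCNE1 leaned the other way, at 26.6 and 12.9 in germinating spherules against 44.4 and 20.5 in zooids. Set beside the other stages, germinating spherules had the highest mean in 30 of 37 transcripts: PCNA had 41.9 in buds, 21.0 in stolons and 15.8 in dormant spherules, and KIF11, a motor of the spindle, had 6.67 in germinating spherules and 0.262 in dormant ones. With equal totals the count was 11 of 37, as zooids then led in 24. Chromatin modifiers were likewise all within 2-fold in 30 compared transcripts, with a median of 0.20, or -0.37 with equal totals. The spliceosome and RNA helicases had 5 of 47 (10.6%) higher in germinating spherules and 1 (2.13%) in zooids, beside 12.7% and 22.3% of all transcripts. SMD2, a core protein of splicing particles, had 1327 in germinating spherules and 516 in zooids. The list median was 0.49, and -0.10 with equal totals.

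**Figure D3:**
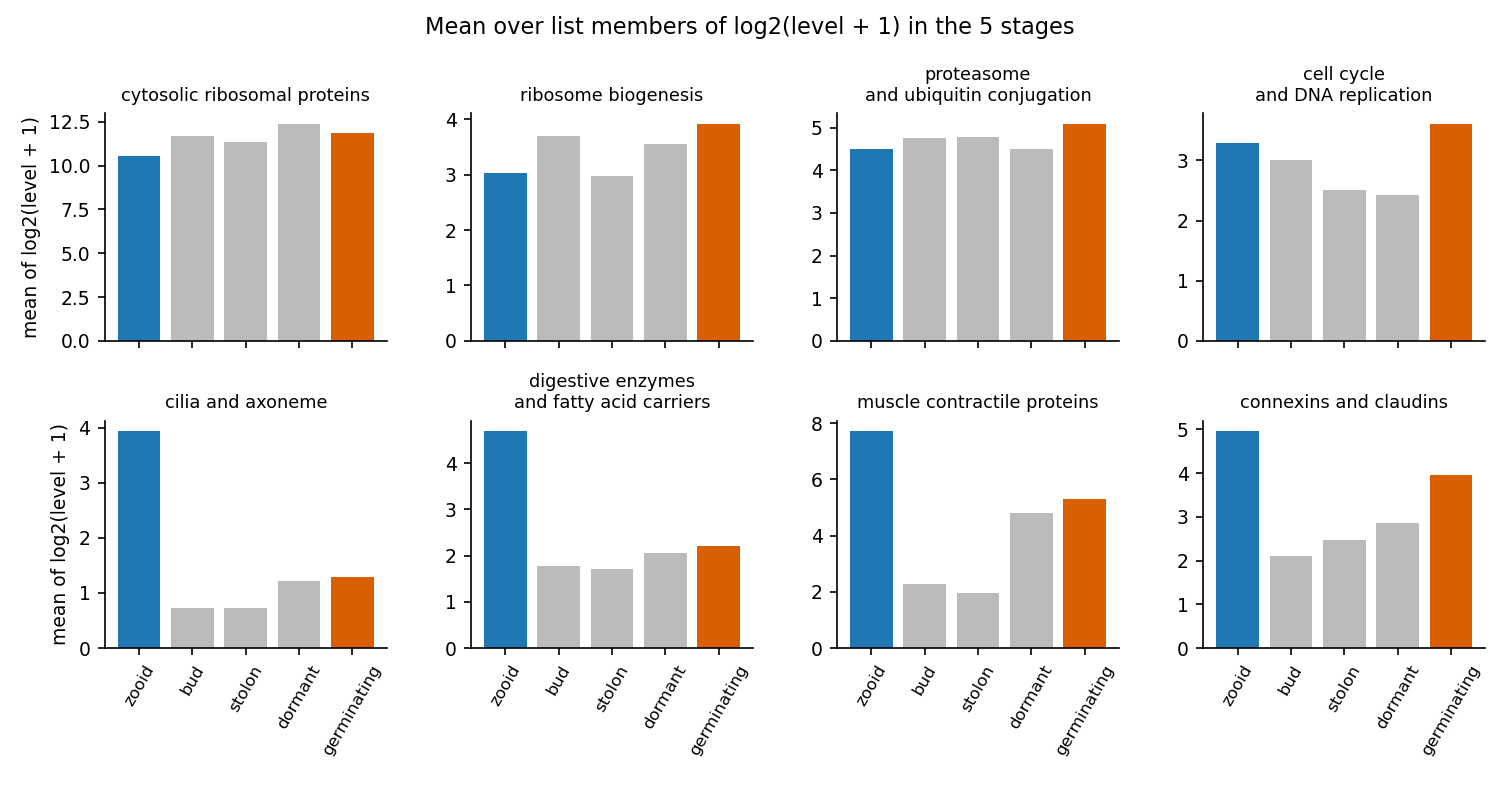
Mean over the compared members of 8 gene lists of log2(level + 1) in the 5 stages, with zooids in blue, germinating spherules in orange and each vertical axis starting at 0. In the upper row germinating spherules exceed zooids (cell cycle 3.60 against 3.28), an order that turns for the median of the cell cycle list with equal totals, and in the lower row they lie below zooids and above buds and stolons (muscle 5.29 against 7.71 in zooids and 2.26 in buds).

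Energy metabolism was mostly level. Of 30 compared transcripts of the TCA cycle and respiratory chain, 28 were within 2-fold, with a median of 0.36, or -0.23 with equal totals. SDHB, the iron-sulfur subunit of succinate dehydrogenase, was the largest exception, with 274 in germinating spherules, 85.7 in zooids and 474 in dormant spherules. Its partner SDHA had 30.7 in germinating spherules and 27.0 in zooids. In glycolysis, G3P and PGK1, enzymes of consecutive steps, were higher in germinating spherules at 798 and 95.3, against 337 and 46.5 in zooids, while 3 sugar transporters, a GTR8 and 2 of the GTR5 transcripts, were higher in zooids. The list median was 0.22, and -0.49 with equal totals. Fatty acid oxidation had a median of -0.06 and 1 of 27 transcripts past 2-fold, ACSF2, an acyl-CoA synthetase, with 14.98 in zooids and 2.31 in germinating spherules.

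Metabolic enzymes and carriers outside these lists stood among the leaders. GALM, which interconverts the forms of galactose and glucose, had a level of 355 in germinating spherules, 22.3 in zooids, 1350 in dormant spherules, 586 in buds and 26.3 in stolons. HACL2, a lyase of 2-hydroxy fatty acids, had 186 in germinating spherules, 18.1 in zooids and 608 in dormant spherules. FTCD, which breaks down histidine and feeds the folate pool, had 29.9 and 4.63. NTCP2, a sodium-driven bile acid carrier, had 21.2 and 1.72. With AMYP, these belonged to the 15 named transcripts with the most positive changes.

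Iron storage was also high. FRIH, the ferritin heavy chain, had a level of 13830 in germinating spherules, second among named transcripts there, and 2254 in zooids. It had 23380 in dormant spherules, 4201 in stolons and 2609 in buds. SQOR, the mitochondrial oxidase of hydrogen sulfide, had 152 in germinating spherules, 44.8 in zooids and 435 in dormant spherules. Of 18 compared redox genes, 2 (11.1%) were higher in germinating spherules and 3 (16.7%) in zooids, beside 12.7% and 22.3% of all transcripts. Those higher in zooids included MGST1, a membrane glutathione transferase, at 27.0 against 3.63 in germinating spherules. Another was GSTO1, also a glutathione transferase, at 51.5 against 19.0.

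Of 42 compared developmental transcription factors, 15 (35.7%) were at 2-fold or more higher in zooids and 5 (11.9%) in germinating spherules, beside 22.3% and 12.7% of all transcripts and 19.7% and 8.92% of those with a human name, with a median change of -0.53. Those higher in zooids included PAX9, FOXA2, FOXI2, HXD10, IRX6, PAX5, GATA2, NKX62, ISL1, SOX9, NKX21, EYA1, HXA3 and COE3. PAX9 and NKX21, patterning factors of the pharynx and thyroid in vertebrates, had levels of 10.7 and 5.37 in zooids, and 0.888 and 0.805 in germinating spherules. FOXA2, a regulator of endoderm, had 10.5 in zooids against 0.881. PAX5 and NKX62, which pattern the neural tube of vertebrates, had 10.6 and 5.81 against 1.59 and 0.734. COE3, a factor of neurons and muscle, was the least reduced, with 17.8 in zooids and 7.38 in germinating spherules, and it was listed at 0 in buds and stolons. These 15 transcripts were low in absolute terms, with no zooid level above 17.8.

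The factors higher in germinating spherules were NKX23, NR4A3, AP2A, RUNX1 and GRHL2. NKX23, a homeodomain factor of gut and pharynx in vertebrates, had a level of 122.97 in germinating spherules and 14.1 in zooids, with 129.6 in buds, 126 in stolons and 119 in dormant spherules. Its level was thus close to the same in every stage but zooids. AP2A and GRHL2, factors of surface epithelia, had 27.1 and 13.6 in germinating spherules, and 8.58 and 5.48 in zooids. RUNX1, a factor of blood cells, had 8.63 in germinating spherules, 2.84 in zooids and 51.5 in buds. NR4A3, an orphan nuclear receptor of the immediate early class, had 11.2 and 3.06. SP9, a zinc finger factor of limb buds in vertebrates and not a member of the list, had 111 in germinating spherules, the highest of its 5 stages, and 19.2 in zooids. Factors near equality included STA5A at 10.4 and 9.40, CUX1 at 19.4 and 16.2, and HHEX at 7.76 and 8.86.

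**Figure D4:**
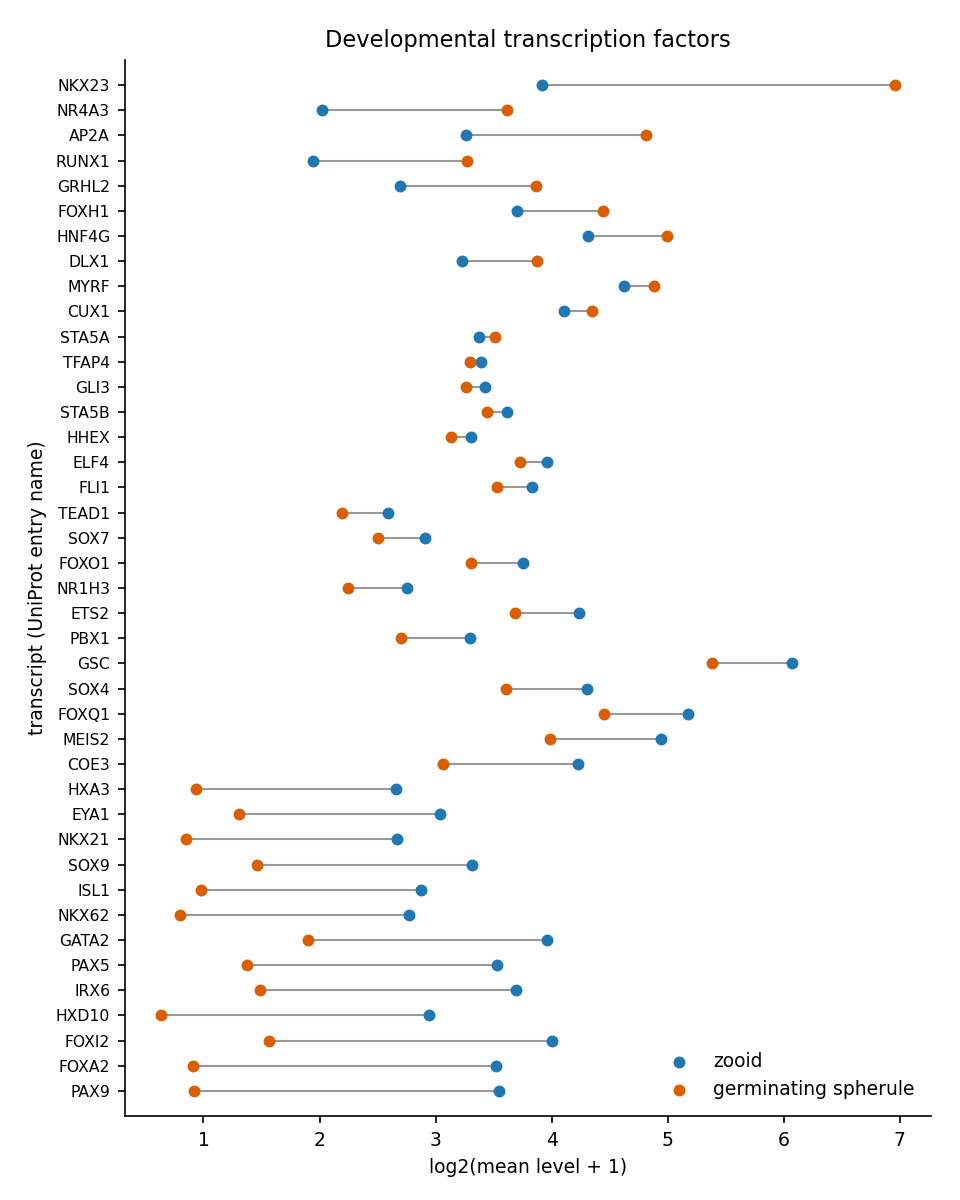
Levels of 41 compared developmental transcription factors in zooids (blue) and germinating spherules (orange), as log2 of the mean level plus 1, ordered by change with the most positive at the top. In the lowest 13 names the germinating mean lies below 3, while NKX23 lies at 122.97 in germinating spherules and 14.1 in zooids.

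Signalling genes past 2-fold were mostly higher in zooids, as were transcripts in general. The Wnt and Notch lists each had 40% of compared transcripts higher in zooids, beside 22.3% of all transcripts. Near that share were TGF-beta and BMP genes, at 25%, and FGF, EGF and ephrin receptors, at 20%, while insulin and TOR genes had none. At most 8.33% of any of these lists was higher in germinating spherules, beside 12.7% of all transcripts and 8.92% of those with a human name. In the Wnt pathway, 6 of 15 compared transcripts were higher in zooids. Among them were the secreted inhibitors SFRP3, at 13.2 in zooids and 1.51 in germinating spherules, and SFRP2. The others were the receptors FZD3, at 6.98 and 2.26, and FZD4, the coreceptor LRP6, at 10.3 and 4.27, and PRIC2 of planar polarity. An unnamed isoform of PRIC2 went the other way, at 7.41 in zooids and 25.4 in germinating spherules. KREM1, a receptor that removes LRP6 from the membrane in the presence of Dickkopf, was higher in germinating spherules, at 64.2 against 18.3. The Wnt ligands WNT7B, WNT2 and WNT5B did not reach the minimum level. The list median was -0.86.

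Among 12 compared TGF-beta and BMP genes, 3 were higher in zooids and 1 in germinating spherules, and the ligands and an inhibitor were those in zooids. BMP4 had a level of 11.5 in zooids and 2.73 in germinating spherules, BMP3 had 6.73 and 1.28, and the BMP-binding inhibitor NOGG had 7.33 and 1.02. The receptor BMPR2 was higher in germinating spherules, at 28.5 against 12.2. Transducers of the pathway did not pass 2-fold, with SMAD4 at 41.4 in germinating spherules and 33.3 in zooids. In the Notch pathway 4 of 10 transcripts were higher in zooids and none in germinating spherules. LFNG, a glycosyltransferase that modifies Notch, had 11.0 in zooids and 0.498 in germinating spherules. The ligand DLL1 had 6.56 and 1.07, the receptor NOTC1 had 14.7 and 6.66, and the target HES1 had 7.77 and 1.73 in the weaker of its 2 transcripts. The stronger HES1 transcript had 53.9 and 33.0.

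Receptor tyrosine kinases differed little. Of 10 compared FGF, EGF and ephrin receptors and their relatives, ERBB4 and 1 FGFR1 transcript were just past 2-fold in zooids, with changes of -1.10 and -1.02, and none was in germinating spherules. EGFR had a level of 26.7 in germinating spherules and 38.7 in zooids in its stronger transcript. Of 14 compared insulin and TOR genes, INSR, the insulin receptor, was alone past 2-fold and higher in germinating spherules, at 10.8 against 3.21, and IRS1, its adaptor, had 27.9 and 14.1, just under 2-fold on this scale. MTOR had 4.54 and 5.14. Of 5 compared AP-1, immediate early and related factors, HLF and NR4A3 were higher in germinating spherules, at 87.8 and 11.2 against 41.6 and 3.06. MAFA was higher in zooids, at 15.5 against 3.74. ATF7 was near level, at 6.21 in germinating spherules and 6.47 in zooids. JUN was within 2-fold too, at 92.8 in germinating spherules and 110.0 in zooids. Its levels in dormant spherules and stolons were 381 and 293. HIF1A, a hypoxia inducible transcription factor, had 48.7 in germinating spherules and 57.4 in zooids, with 231 in dormant spherules. For JUN and HIF1A, germinating spherules were thus nearer to zooids than to dormant spherules.

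Retinoic acid genes were divided. RDH10, which makes retinaldehyde, the precursor of retinoic acid, had a level of 30.5 in zooids and 7.55 in germinating spherules. RDHE2 and RDH16, related dehydrogenases, had 22.4 and 5.71 in zooids, and 8.70 and 1.87 in germinating spherules. DHRS1, a short-chain dehydrogenase, had 10.9 and 0.394. Of the 2 transcripts of RARG, a nuclear receptor for retinoic acid, the stronger had 64.7 in germinating spherules and 38.7 in zooids, and the weaker had 4.04 and 8.54. Both transcripts of CP26B, which degrades retinoic acid, were under the minimum level, at 0.484 and 1.07 in germinating spherules. 1 of the 2 DHR11 transcripts was the only member past 2-fold in germinating spherules, at 93.0 against 38.6. The list median of 13 compared transcripts was -0.40.

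Immune and lysosomal genes held members at both ends. Of 19 compared immune genes, 4 were higher in germinating spherules and 7 in zooids, or 21.1% and 36.8%. Of 29 autophagy and lysosome genes, 4 (13.8%) and 7 (24.1%) were so, near the 12.7% and 22.3% of all transcripts. CD109, a protease inhibitor of the complement C3 family, had a level of 388 in germinating spherules, 9.85 in zooids, 1094 in buds, 766 in dormant spherules and 146 in stolons, and its change of 5.17 was the second most positive of named transcripts. The complement component CO3 was higher in germinating spherules in both of its transcripts, at 141 against 37.9 and at 47.1 against 22.4. VWF, a clotting protein of vertebrates, had 49.1 in zooids and 1.05 in germinating spherules in its strongest transcript. NFKB1, a transcription factor of immune responses, had 35.5 in zooids and 11.8 in germinating spherules. Among lysosomal genes, the proteases CATL1 and CATD had 90.8 and 35.03 in zooids, and 0.376 and 1.03 in germinating spherules. Their relative CATB had 273 in germinating spherules and 161 in zooids, within 2-fold. NPC2 and LICH, which release cholesterol in lysosomes, were higher in germinating spherules at 398 and 22.3, against 197 and 7.43. The autophagy protein MLP3A, an LC3 of autophagosomes, had 958 in germinating spherules, 391 in zooids and 2675 in dormant spherules.

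Of 13 compared programmed cell death genes, 3 (23.1%) were past 2-fold in zooids, near the 22.3% of all transcripts, and none in germinating spherules. P73, a relative of the tumour suppressor p53, had a level of 12.3 in zooids and 0.796 in germinating spherules. CASP2, a caspase, had 43.2 and 13.2 in the strongest of its 3 transcripts, and XIAP, a caspase inhibitor, had 10.4 and 1.16 in 1 of 2 transcripts, while the other had 5.85 and 5.73. Of 6 compared stem cell and germline transcripts, 3 (50%) were higher in zooids and 1 (16.7%) in germinating spherules. Over all transcripts the shares were 22.3% and 12.7%. Both transcripts of the RNA-binding protein MSI2H were higher in zooids, the stronger at 39.9 against 4.92, and so was MYBA, a Myb transcription factor, at 10.2 against 2.03. PUM3, a Pumilio protein of the nucleolus, was higher in germinating spherules, at 11.4 against 4.48. DDX4, the helicase vasa of germ cells, had 6.26 in germinating spherules and 3.09 in zooids, within 2-fold on this scale.

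Of 94 compared solute carriers and water channels, 28 (29.8%) were higher in zooids and 8 (8.51%) in germinating spherules, the latter near the 8.92% of transcripts with a human name, with a median of -0.38. The zooid set held S6A20 and SC6A7, carriers of proline and related amino acids, at 25.0 and 75.1 against 0.921 and 4.77 in germinating spherules, and SC5A1, the intestinal sodium and glucose carrier, at 5.25 against 0.106. The germinating set held the amino acid carriers S38A7, at 40.8 against 7.35, LAT2, at 87.0 against 24.1, and LAT4, at 56.7 against 24.9. AQP8, a water channel, had 46.5 in germinating spherules, 12.2 in zooids and 257 in dormant spherules. Cytochromes P450 and conjugating enzymes had 4 of 15 (26.7%) higher in germinating spherules, led by CP2C9 at 56.9 against 9.38. In zooids 3 (20%) were higher, near the 22.3% of all transcripts.

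**Figure D5:**
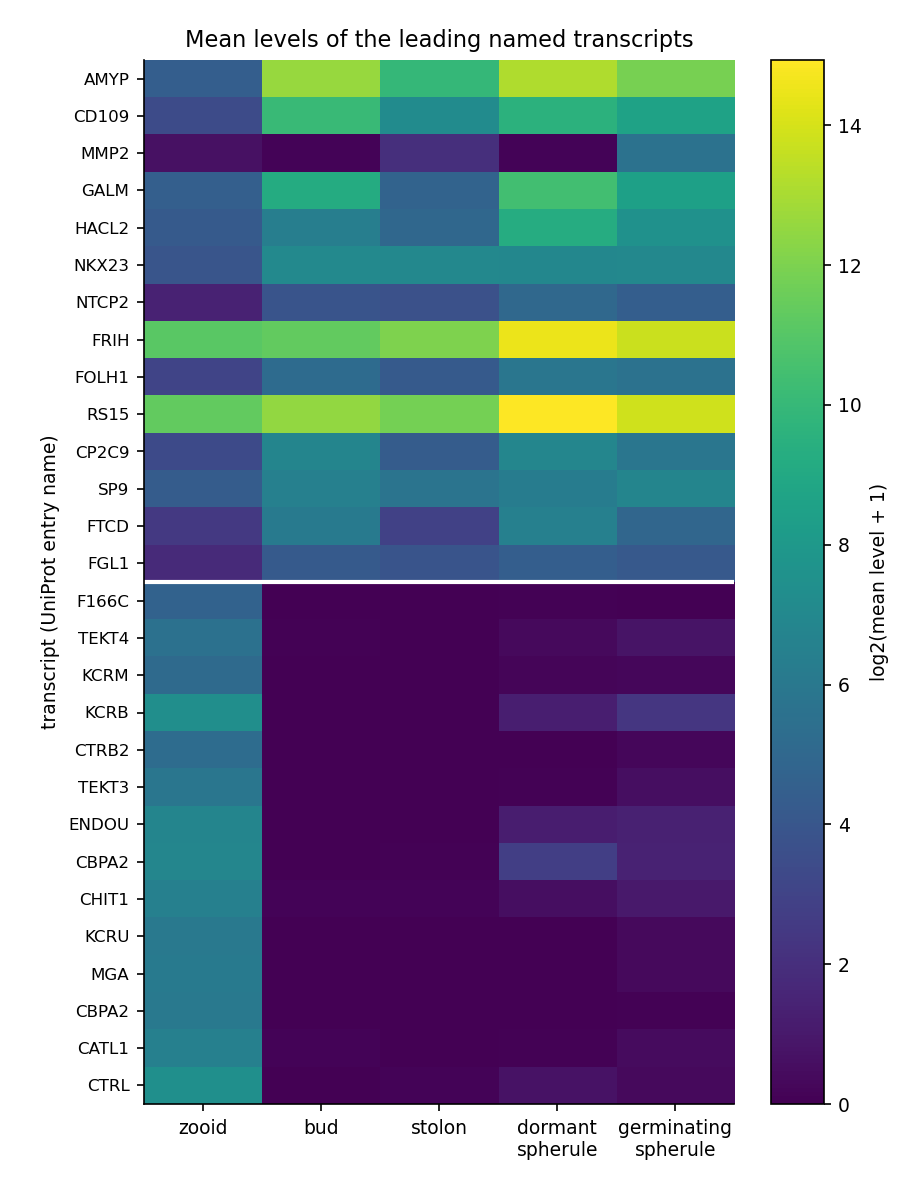
Mean levels in the 5 stages, as log2(level + 1), of 14 named transcripts among those with the most positive change (above the white line) and 14 among those with the most negative change (below it). The upper rows, MMP2 excepted, are also high in dormant spherules and buds, and the lower rows are at 5.70 or less in every stage but zooids.

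Position among the 5 stages differed between both sets. Of the 3866 transcripts higher in zooids, 2712 (70.2%) had a zooid level at least 2-fold that of every other stage. Of the 2200 higher in germinating spherules, 183 (8.32%) were at least 2-fold above every other stage. Dormant spherules were the highest stage in 904 (41.1%) and germinating spherules in 707 (32.1%), beside 21.9% and 17.1% of all compared transcripts. Over all 17361, equal totals of the 5 stages lowered these counts from 3805 to 923 and from 2967 to 1554. The 2200 were not counted on that scale. Median levels of the 2200 were 24.1 in germinating spherules, 24.3 in dormant spherules, 18.5 in buds, 14.8 in stolons and 5.37 in zooids. The set was chosen for its germinating and zooid means, so shares taken over zooids depend in part on that choice. Dormant spherules were past 2-fold over zooids in 1472 of the 2200 (66.9%), buds in 1335 (60.7%) and stolons in 1087 (49.4%). All 3 were so in 686 (31.2%), and the same shares over all compared transcripts were not computed. Only 3 of the 183 had a human name: MMP2, ABCF2, an ATP-binding protein of the cytosol, at 32.2 against at most 15.6 elsewhere, and 1 of 2 transcripts of S49A3, at 5.27 against at most 2.47. The most abundant of the 183, TRINITY_DN741_c0_g1_i5.p1, had 4256 in germinating spherules, 348 in zooids and 297 in stolons, and no name was given for it.

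The 2712 zooid transcripts were low in all other stages, yet unequally so. Their median level was 11.5 in zooids, 1.07 in germinating spherules, 0.551 in dormant spherules, 0.306 in stolons and 0.279 in buds. Germinating spherules were the highest of the 4 other stages in 1398 of them (51.5%), whereas over all compared transcripts they were so in 30.1%. With the stages scaled to equal totals the share among the 2712 was 52.7%. Among the 2712 were 58 cilia, 16 digestive and 13 muscle transcripts, and germinating spherules were the highest stage after zooids in 36, 11 and 8 of these. MYH1, for instance, had 24.3 in germinating spherules, 8.33 in dormant spherules, 0.088 in buds and 0.04 in stolons.

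Transcripts without a human name led both ends. Only 1 of the 20 most positive and 1 of the 20 most negative changes belonged to a named transcript, AMYP and CTRL. The most negative change, -10.2, was that of TRINITY_DN1259_c0_g1_i1.p1, with 4477 in zooids and 2.80 in germinating spherules. The most positive, 7.94, was that of TRINITY_DN17286_c0_g2_i1.p1, with 378 in germinating spherules, 0.538 in zooids, 4658 in dormant spherules and 3.87 in buds. In 134 of the transcripts higher in zooids the germinating mean was listed at 0, and in 65 of those higher in germinating spherules the zooid mean was listed at 0.

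Isoforms of the same assembled gene were seldom past 2-fold in opposite directions. Among 2460 assembled genes with at least 2 compared transcripts, all were higher in germinating spherules in 218 and all in zooids in 342. Transcripts past 2-fold in opposite directions were found in 37, and the remaining genes were not sorted by direction. A human name was attached in 4 of these 37. CNTP2, a neurexin-like adhesion protein of axons, had 14.48 in zooids and 0.008 in germinating spherules in its named transcript, while the unnamed isoform had 17.3 and 56.5. RIBC2, a protein inside the ciliary doublets, had 29.5 and 1.56, and an unnamed transcript assembled with it had 8.65 and 34.2. A further transcript of this assembled gene was named SCAI, at 4.29 and 7.74, so it held transcripts with different names. NETR, a serine protease, had 6.32 and 0.998 against 3.58 and 23.0 in its isoform. PRIC2 had 7.97 and 2.06 against 7.41 and 25.4. How reads were divided between such isoforms depends on the assembly and the quantification, and their levels are uncertain to that extent.

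The most abundant named transcripts described the 2 stages in short. In germinating spherules the first 10 were RS15, FRIH, RS27, RL37A, RS12, RL5, RLA0, RL35, RL23 and RL35A, that is 9 ribosomal proteins and ferritin. In zooids the first 10 held 7 ribosomal proteins and 3 muscle proteins, ACTS at 4224, CNN1, the calponin of smooth muscle, at 2474, and MYL5, a myosin light chain, at 2438.

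Values of the same comparison in Clavelina lepadiformis, whose table was scaled separately, were set beside these. Both partners reached the minimum level in 3398 ortholog pairs, and their median change was -0.01 in the former species and -0.51 in the latter. Of 783 pairs higher in zooids of P. zorritensis, 574 (73.3%) were higher in zooids of C. lepadiformis, which is 54.6% of the 1051 pairs called there, and 41 were higher in its germinating tissue. Of 343 pairs higher in germinating spherules, 155 (45.2%) were higher in germinating tissue of C. lepadiformis, which is 38.5% of the 403 called there, and 44 were higher in its zooids. Over all pairs the shares in C. lepadiformis were 30.9% for zooids and 11.9% for germinating tissue. Median changes of cilia, muscle and cytosolic ribosomal proteins had the same sign in both species, at -3.18, -4.56 and 1.56 in C. lepadiformis. The medians of ribosome biogenesis, translation factors, the proteasome and chaperones were -0.50, -0.65, -0.49 and -1.04 there, against 0.90, 0.76, 0.72 and 0.56 in P. zorritensis. Among single genes past 2-fold in both, NTCP2, EIF3L, NUCL, HS90B and G3P were higher in germinating spherules of P. zorritensis and in zooids of C. lepadiformis. The difference between the species was not tested.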

How the data were processed

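RNA of zooids (3 samples) and germinating spherules (6) was sequenced as paired reads in 2 lanes. The authors removed ribosomal RNA with Bowtie2, built 1 Trinity assembly from all stages, dropped its transcripts below 5 TPM and estimated abundance by Kallisto. The deposited signal values are TPM scaled by TMM and averaged by the authors over the samples of a stage. The depth of each sample is unknown here, and no precision can be stated. A second deposited table pairs transcripts with those of C. lepadiformis and gives entry names. Its other columns hold the authors' stage calls, which were not used.

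Changes were computed with Python 3.11.15, numpy 2.4.6 and pandas 2.3.3, with a pseudocount of 1, a minimum of 5 and a 2-fold threshold, and tested on simulated data. Matplotlib 3.10.9 drew the figures. The 36 gene lists were matched to entry names. Named are the 15 largest changes per direction, up to 4 per direction in each list, short lists whole, isoforms in opposite directions and the 10 most abundant. SP9, CATB, SDHA, PPIB, the creatine kinases and similar comparisons were added. Members, lists and added names were chosen with earlier results of these data known, and some lists were extended or trimmed after names and values had been seen. Alternatives were other pseudocounts, minimums, scalings and thresholds, and summed isoforms. Some named transcripts are not reported here.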

Additional observations from a re-analysis of the deposited data

How the results depend on the processing

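Values were 1 mean per stage, so no replicate could be left out. No paired analysis was possible because the values are means over the samples of a stage. The counts of transcripts higher in germinating spherules and in zooids, 2200 and 3866, became 2989 and 5856 with no minimum level, 1691 and 2185 with a minimum of 10, 1179 and 7548 with equal totals (19903 transcripts compared, as the minimum of 5 was applied after rescaling), and 780 and 2230 at 4-fold. Other pseudocounts (0.1 and 5), centring and summed isoforms kept both counts within 1.5-fold. The median change was 0.064 with a minimum of 10 and -0.71 with equal totals. On the 17361 transcripts of the main comparison, equal totals gave 1198 and 6074 with a median of -0.62, a setting added after the data had been seen. The share of higher calls in germinating spherules, 36.3%, was 43.6% with a minimum of 10, 13.5% with equal totals and 25.9% at 4-fold. Of 36 list medians, 9 changed sign with equal totals, 8 with a minimum of 10, 5 with centring, 5 with summed isoforms and 1 with no minimum, and none with the other pseudocounts. Of 263 named transcripts, 71 crossed the 2-fold line with equal totals, 38 with a pseudocount of 5, 10 with a pseudocount of 0.1, 10 with summed isoforms and 4 with centring. PRIC2 reversed to 0.84 when its isoforms were summed. The counts of highest stages with equal totals were added after the data had been seen. The cause of these shifts was not tested beyond the construction of each alternative.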
